A study of Mus musculus with 12 samples.

Results

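The genes described here are 9 early response genes of T cell receptor signalling: the nuclear receptor genes Nr4a1, Nr4a2 and Nr4a3, the zinc finger genes Egr1, Egr2 and Egr3, the phosphatase gene Dusp2, the inhibitor gene Spry1, and Myc. They were taken by name, not by their values, from the 39179 gene IDs of a mouse RNA sequencing study, and each matched 1 Ensembl ID. All 9 were among the 12189 genes with enough counts for a test. The study grew CD4 T cells that carry the OT-II transgenic T cell receptor, specific for an ovalbumin peptide, and asked how cells that lack NKG2D, the activating receptor encoded by Klrk1, differ from cells that have it in Th17 and in Th1 cultures. Th17 KO samples were Thy1.1+ OT-II x NKG2D-/- cells, and Th17 WT samples were Thy1.2+ OT-II cells sorted as NKG2D+. Both were cultured together with IL-6, IL-1b and IL-23 while IFNg and IL-4 were blocked, and IL-12 was added from the second stimulation on. Th1 KO and Th1 WT samples had the same genotypes and sort, and were cultured together with IL-12 and IL-2 while IL-4 was blocked. All cultures received the peptide, an antibody to CD28 and antigen-presenting cells, were polarized on day 0 and again on day 5, and were harvested on day 8. There were 3 samples for each of the 4 groups. Because KO and WT samples differ in genotype, in Thy1 allele and in the gate on NKG2D at once, these cannot be told apart in a comparison of KO with WT, and the WT samples hold only the NKG2D+ share of their cultures. Nothing in the labels ties samples to separate cultures or animals, or says which KO and WT samples shared a culture, so every p-value rests on the spread among these samples alone, and that spread may be technical.

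When the T cell receptor binds antigen, calcium and ERK signals switch on the NR4A and EGR genes quickly and for a short time. The NR4A proteins are orphan nuclear receptors that, when signalling lasts, take part in tolerance and exhaustion of T cells; EGR2 and EGR3 are known for a role in anergy, while EGR1 is an early activator. DUSP2 removes phosphate from ERK in the nucleus, SPRY1 dampens signalling upstream of ERK, and MYC drives growth and metabolism of activated T cells.

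The 9 deep libraries held 9108203 to 12688637 gene counts, and 3 shallow ones (Th17 KO 2, Th17 WT 2 and Th17 WT 3) held 1647232 to 2731909. In the shallow libraries a single ID without a name in the annotation took 18.3% to 51% of all counts, and in the deep ones no more than 0.00831%. A single read was worth 0.396 to 1.05 CPM (the normalised read count, relative to the TMM-scaled library size) in the shallow libraries and 0.0694 to 0.0945 CPM in the deep ones. Klrk1, the deleted gene, had 3.35, 2.10 and 1.60 CPM in Th17 KO against 130, 141 and 133 CPM in Th17 WT, and 5.58, 5.63 and 3.31 CPM in Th1 KO against 161, 158 and 128 CPM in Th1 WT. Every library therefore matched its genotype label. The 7 T cell markers summed to 9260 to 9530, 9930 to 11000, 9550 to 10200 and 10000 to 10800 CPM in Th17 KO, Th17 WT, Th1 KO and Th1 WT. The 6 B cell markers summed to 2.1 to 5.96 CPM in Th17 KO, 1.04 to 1.98 CPM in Th17 WT, 0.347 to 1.21 CPM in Th1 KO and 0.347 to 0.58 CPM in Th1 WT. The 10 macrophage and dendritic cell markers summed to 8.57 to 11.6, 8.7 to 9.83, 6.88 to 8.32 and 6.59 to 7.84 CPM in Th17 KO, Th17 WT, Th1 KO and Th1 WT. The 6 markers of CD8 T cells and NK cells summed to 4.2 to 5.96, 2.08 to 6.95, 2.43 to 3.02 and 3.33 to 4.06 CPM in the same order of groups, with Ncr1 at 0 in all 12 libraries. Mitochondrial genes took 19% to 20.8% of the counts without the unnamed ID in Th17 KO, and 16.9% to 18.6% in Th17 WT. This mitochondrial share was 14.6% to 15.1% in Th1 KO and 14.2% to 14.8% in Th1 WT. The B cell sums, the macrophage and dendritic cell sums and the mitochondrial share were higher in every Th17 library than in every Th1 library of the same genotype, while the CD8 and NK cell sums overlapped in WT. Between genotypes, the B cell sums and the mitochondrial share were higher, and the T cell sums lower, in every Th17 KO library than in every Th17 WT library, and the CD8 and NK cell sums were lower in every Th1 KO library than in every Th1 WT library. The lowest B cell sum in Th17 KO was 2.1 CPM and the highest in Th17 WT 1.98 CPM. At up to 1.05 CPM per read in the shallow libraries, such sums rest on few reads. The part of these sums and shares in the differences below was not tested.

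Promoter sequence was looked at because the 3 NR4A genes were all higher in Th17 than in Th1. RefSeq windows on GRCm38.p6 were at hand for 6 of the 9 genes (Nr4a1, Nr4a2, Nr4a3, Egr2, Dusp2 and Spry1), 10 windows in all, and the 250 bases before each start site, as RefSeq places it, were read. CREB, a factor activated by calcium and cyclic AMP signals, binds the cyclic AMP response element, whose half-site is TGACG. The windows of all 3 NR4A genes held 4 half-sites each, counted on both strands, where 0.137% of 32851 windows in the table held 4 or more and 17.8% held at least 1. The cut of 4 equals the count in these 3 windows, and half-sites are given first among several motifs searched. The share of 0.137% is therefore a description and not a test. None of the 3 windows held the full element TGACGTCA, which 1.55% of all windows held. The 3 windows and 1 of Egr2 are shown 5′ to 3′ in the direction of transcription, with capitals for each half-site (TGACG, or CGTCA where it lies on the other strand) and, in Egr2, also for the CArG box.
Nr4a1, chr15:101266596-101266845, plus strand: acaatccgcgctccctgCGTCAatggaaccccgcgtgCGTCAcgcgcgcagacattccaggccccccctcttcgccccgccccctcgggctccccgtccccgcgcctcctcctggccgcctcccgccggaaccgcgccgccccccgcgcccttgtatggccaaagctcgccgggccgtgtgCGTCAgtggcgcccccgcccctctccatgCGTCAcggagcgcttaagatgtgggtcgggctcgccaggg
Nr4a2, chr2:57124004-57124253, minus strand: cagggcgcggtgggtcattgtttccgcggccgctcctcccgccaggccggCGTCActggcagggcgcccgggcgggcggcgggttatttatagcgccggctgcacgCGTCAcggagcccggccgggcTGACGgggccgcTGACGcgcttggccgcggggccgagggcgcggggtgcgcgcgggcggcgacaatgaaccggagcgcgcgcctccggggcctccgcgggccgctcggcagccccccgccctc
Nr4a3, chr4:48045055-48045304, plus strand: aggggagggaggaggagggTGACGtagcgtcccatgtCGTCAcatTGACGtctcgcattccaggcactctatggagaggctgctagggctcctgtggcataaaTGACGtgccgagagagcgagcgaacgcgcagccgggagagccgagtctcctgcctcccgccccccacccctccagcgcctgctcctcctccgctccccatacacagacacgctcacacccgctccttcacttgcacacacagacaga
Egr2, chr10:67537619-67537868, plus strand: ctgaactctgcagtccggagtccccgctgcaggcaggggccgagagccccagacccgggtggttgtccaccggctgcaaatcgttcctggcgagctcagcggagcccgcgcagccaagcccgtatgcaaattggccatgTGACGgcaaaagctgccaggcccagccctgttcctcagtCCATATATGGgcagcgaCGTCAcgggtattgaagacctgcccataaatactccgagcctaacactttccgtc

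The Egr2 window shown held 2 half-sites and 1 CArG box, the element of serum response factor, which 1.47% of all windows held. Egr2 had 5 windows in the table, and 4 of them held a CArG box, of which 3 windows overlap each other. Of the other motifs searched, the EGR site GCGNGGGCG occurred once each in the windows of Nr4a1, Nr4a2 and Dusp2, against 4.7% of all windows. The E-box CACGTG, which MYC can bind, occurred once in Dusp2 and in 1 Egr2 window, against 6.02% of all windows. The NR4A element AAAGGTCA (1.34% of all windows) and the AP-1 site TGANTCA (6.75%) occurred in none of the 10, and the NFAT core GGAAA, which 55.6% of all windows held, occurred once in Nr4a2 and in 4 Egr2 windows. The Spry1 window held none of the 8 motifs. The full element contains the half-site on both strands. These matches describe the letters of the windows only.

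The NR4A genes were far higher in Th17 cells than in Th1 cells, in KO and in WT alike. Nr4a1 (ENSMUSG00000023034, chromosome 15, 101254269 to 101274795 on GRCm38), which encodes NUR77, had 24.0, 41.0 and 41.2 CPM in Th17 KO and 27.2, 39.2 and 23.9 CPM in Th17 WT, against 3.31, 2.85 and 2.34 CPM in Th1 KO and 3.12, 4.07 and 3.54 CPM in Th1 WT. Every Th17 library lay above every Th1 library. Th17 KO exceeded Th1 KO 11.8-fold (log2 difference 3.56, SE 0.25, adjusted p = 1.88e-08), and Th17 WT exceeded Th1 WT 8.41-fold (log2 difference 3.07, SE 0.25, adjusted p = 1.71e-07), in edgeR's quasi-likelihood test with Benjamini-Hochberg adjustment over all genes tested. In bulk RNA a higher share of cells with a transcript and more of it per cell cannot be told apart.

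Nr4a2 (ENSMUSG00000026826, chromosome 2, 57106830 to 57124003), which encodes NURR1, had 10, 11.6 and 14.9 CPM in Th17 KO and 14.6, 22.5 and 24.9 CPM in Th17 WT, against 1.13, 1.81 and 2.26 CPM in Th1 KO and 1.52, 2.12 and 1.94 CPM in Th1 WT. The lowest Th17 library was well above the highest Th1 library. The difference between Th17 and Th1 was 6.97-fold in KO (log2 difference 2.80, SE 0.24, adjusted p = 8.82e-10) and 9.75-fold in WT (log2 difference 3.29, SE 0.25, adjusted p = 1.11e-10). Nr4a3 (ENSMUSG00000028341, chromosome 4, 48045153 to 48086447), which encodes NOR1, had 7.32, 10.5 and 10.8 CPM in Th17 KO and 6.86, 18.2 and 11.4 CPM in Th17 WT. Its Th1 values were 1.89, 1.32 and 2.02 CPM in KO and 1.60, 1.33 and 1.53 CPM in WT. Here too the Th17 and Th1 libraries did not overlap. Its difference was 5.3-fold in KO (log2 difference 2.41, SE 0.30, adjusted p = 1.22e-06) and 6.93-fold in WT (log2 difference 2.79, SE 0.33, adjusted p = 7.92e-07). In libraries thinned to the smallest total, Nr4a1 stayed past the threshold of 0.05 in both genotypes. Nr4a2 (adjusted p = 0.431 in KO and 0.122 in WT) and Nr4a3 (0.526 and 0.222) did not.

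Egr2 and Egr3 were also higher in Th17 cells, from few reads, while Egr1 passed the test in WT and missed the threshold in KO. Egr2 (ENSMUSG00000037868, chromosome 10, 67535475 to 67542188) had 2.57, 11.6 and 7.89 CPM in Th17 KO and 4.83, 7.51 and 8.31 CPM in Th17 WT, against 0.567, 0.764 and 1.70 CPM in Th1 KO and 0.58, 0.94 and 1.11 CPM in Th1 WT. The groups did not overlap, although Th17 KO 1 was closer to Th1 than the other Th17 libraries. The difference between Th17 and Th1 was 5.51-fold in KO (log2 difference 2.46, SE 0.51, adjusted p = 0.00116) and 6.6-fold in WT (log2 difference 2.72, SE 0.56, adjusted p = 0.00134). Egr3 (ENSMUSG00000033730, chromosome 14, 70077203 to 70082614) had 2.02, 10.5 and 4.03 CPM in Th17 KO and 2.80, 5.14 and 5.19 CPM in Th17 WT. In Th1 it had 1.23, 1.18 and 1.21 CPM in KO and 0.726, 0.94 and 1.18 CPM in WT. All Th17 values exceeded all Th1 values, by 2.9-fold in KO (log2 difference 1.53, SE 0.39, adjusted p = 0.00173) and 3.73-fold in WT (log2 difference 1.90, SE 0.44, adjusted p = 0.000907). The highest Egr3 value, 10.5 CPM in the shallow library Th17 KO 2, rested on 10 reads, with a 95% counting interval (exact Poisson) of 5.04 to 19.3 CPM.

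Egr1 (ENSMUSG00000038418, chromosome 18, 34859823 to 34864984) had 9.11, 20.0 and 17.9 CPM in Th17 KO and 22.6, 15 and 38.4 CPM in Th17 WT, against 10, 7.23 and 8.40 CPM in Th1 KO and 10.2, 9.87 and 8.53 CPM in Th1 WT. In WT the Th17 libraries were all above the Th1 libraries, whereas Th17 KO 1 fell within the Th1 KO range. The difference was 2.37-fold in WT (log2 fold change 1.25, SE 0.30, adjusted p = 0.00583), and it did not pass in KO (log2 difference 0.72, SE 0.30, adjusted p = 0.0683). The WT call was lost without Th17 WT 1 (adjusted p = 0.0813), and the KO value passed without Th17 KO 1 (adjusted p = 0.000222) or Th17 WT 3 (0.0378) and with no filter on low counts (0.000407).

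**Figure D1:**
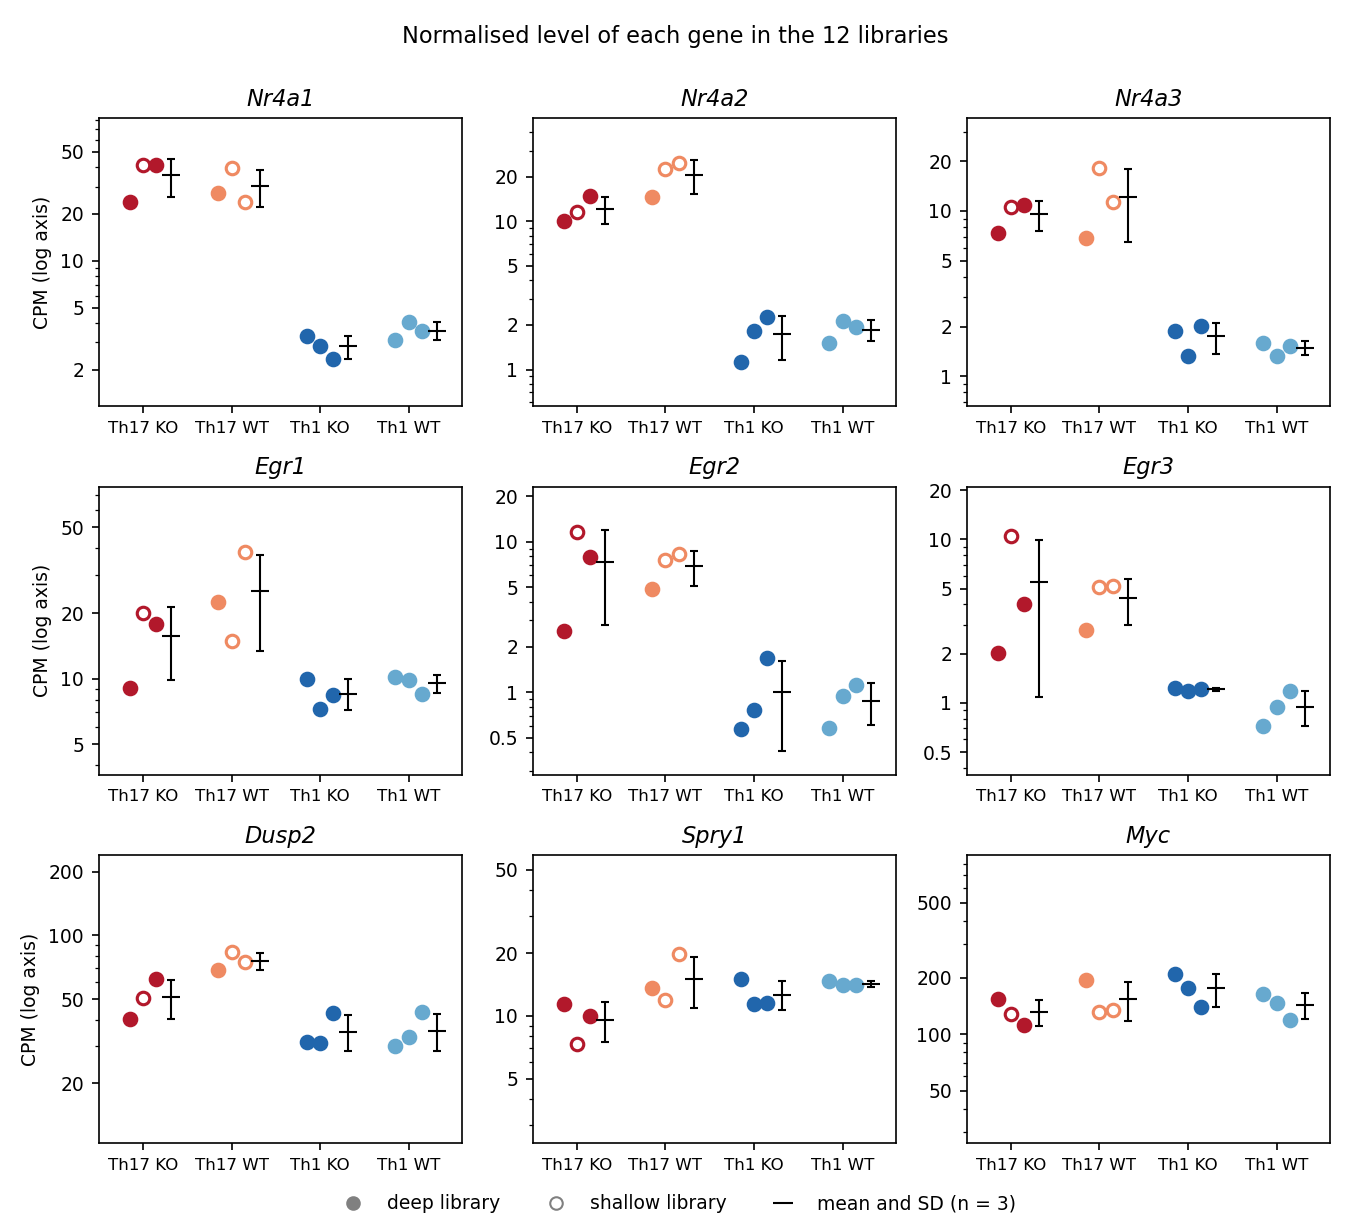
Normalised levels (CPM, log axis with its own range in each panel) of the 9 genes in the 12 libraries, 3 per group, with the mean and SD beside the points and open points for the 3 shallow libraries. The Th17 libraries lie above the Th1 libraries for the NR4A genes, Egr2 and Egr3, with Nr4a1 at 23.9 to 41.2 CPM in Th17 and 2.34 to 4.07 CPM in Th1, while Spry1 and Myc overlap.

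Among the regulators of ERK signalling, Dusp2 was higher in Th17 WT than in Th1 WT, and neither Spry1 nor Myc passed the test between Th17 and Th1. Dusp2 (ENSMUSG00000027368, chromosome 2, 127336159 to 127338376) had 40.4, 50.4 and 62.0 CPM in Th17 KO and 68.9, 83.1 and 74.8 CPM in Th17 WT, against 31.4, 30.9 and 43.0 CPM in Th1 KO and 30.0, 33.0 and 43.4 CPM in Th1 WT. All 3 Th17 WT libraries stood above all other libraries, and Th17 KO overlapped Th1 KO. The WT difference was 2.08-fold (log2 fold change 1.06, SE 0.23, adjusted p = 0.00422) and was not past the threshold without the 3 shallow libraries (log2 fold change 0.96, adjusted p = 0.0716). In KO it was 1.45-fold (log2 fold change 0.54, SE 0.22, adjusted p = 0.0678). That value passed in DESeq2 (adjusted p = 0.0059) and without Th17 KO 1 (0.0151), Th1 KO 3 (0.0246) or Th1 WT 3 (0.0422).

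Spry1 (ENSMUSG00000037211, chromosome 3, 37639947 to 37644598) had 11.4, 7.35 and 9.99 CPM in Th17 KO and 13.6, 11.9 and 19.7 CPM in Th17 WT, against 15, 11.4 and 11.6 CPM in Th1 KO and 14.7, 14.0 and 14.0 CPM in Th1 WT. The log2 fold change of Th17 over Th1 was -0.26 in KO (95% interval -0.56 to 0.04, adjusted p = 0.131) and -0.04 in WT (-0.36 to 0.28, adjusted p = 0.859). Myc (ENSMUSG00000022346, chromosome 15, 61985391 to 61990374), the most abundant of the 9, had 154, 128 and 112 CPM in Th17 KO and 194, 131 and 134 CPM in Th17 WT, against 210, 175 and 140 CPM in Th1 KO and 163, 146 and 119 CPM in Th1 WT. Its libraries overlapped in every pair of groups. The log2 fold change of Th17 over Th1 was -0.41 in KO (95% interval -0.92 to 0.11, adjusted p = 0.164) and 0.16 in WT (-0.36 to 0.68, adjusted p = 0.603).

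In KO, 5 of the 9 genes were past the threshold and higher in Th17 (Nr4a1, Nr4a2, Nr4a3, Egr2 and Egr3), where 26.9% of all 12189 genes were called higher. In WT, 7 of 9 were (the same 5 with Egr1 and Dusp2), where 23.5% of all genes were called higher. Genes called and at least 4-fold higher were rarer, with 3.52% of all genes in KO and 3.61% in WT. The 3 NR4A genes and Egr2 were past that fold in both genotypes. In thinned libraries the WT calls of Egr1 (adjusted p = 0.682) and Dusp2 (0.0731) were lost, and Egr2 and Egr3 had too few counts for a test. None of the 9 was called lower in Th17 in either genotype. Their median log2 fold change was 1.53 in KO and 1.90 in WT, beside 0.000902 and -0.0078 over all genes tested.

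**Figure D2:**
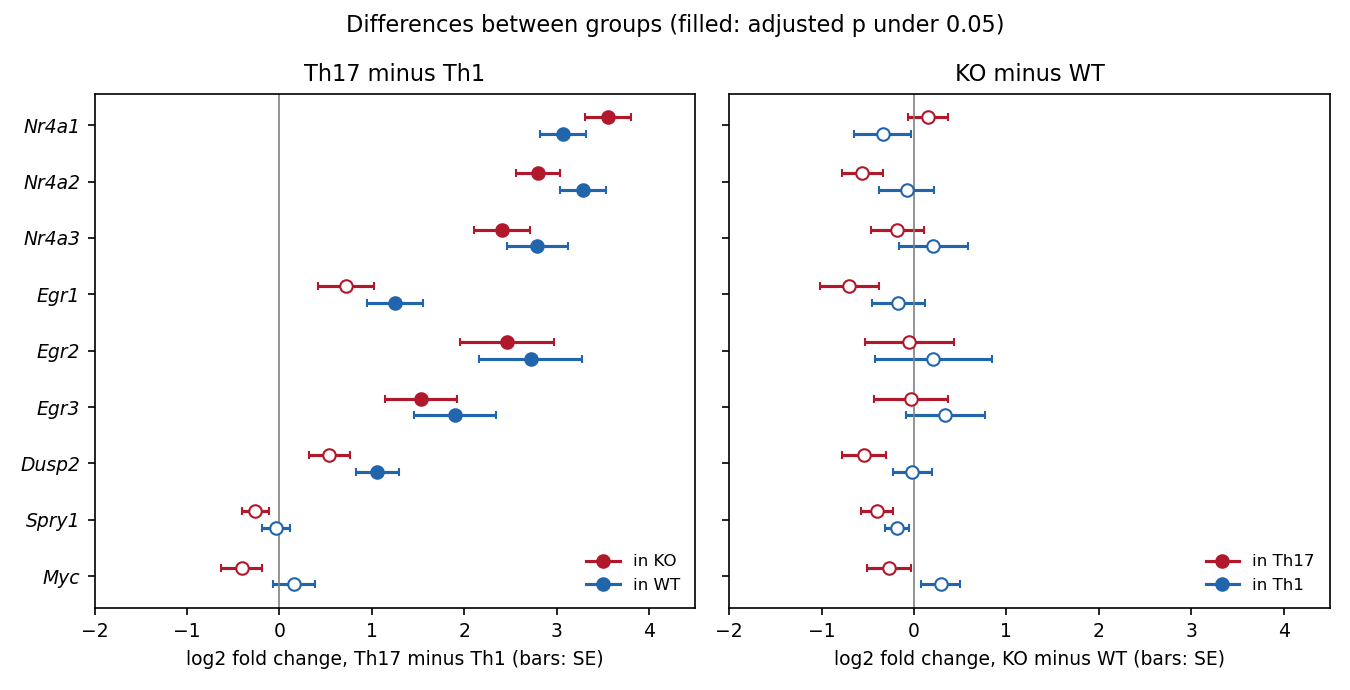
Log2 fold changes (horizontal axis, bars are SE) of the 9 genes, on the left for Th17 minus Th1 in KO and in WT and on the right for KO minus WT in Th17 and in Th1, with filled points past an adjusted p of 0.05 in edgeR. Filled points, 5 in KO and 7 in WT, appear in the left panel only, and the largest is Nr4a1 in KO at 3.56.

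Levels per length, as counts over the summed length of each gene's merged exons scaled to a common total per library (TPM), put Myc first and Dusp2 second in all 4 groups. Myc averaged 127 ± 19.8 TPM in Th17 KO, 154 ± 35.9 in Th17 WT, 183 ± 35.6 in Th1 KO and 145 ± 24.7 in Th1 WT (SD, n = 3 each), and its libraries did not overlap those of Dusp2 in any group. Dusp2 averaged 66.6 ± 13.9 TPM in Th17 KO, 103 ± 10.4 in Th17 WT, 49.9 ± 10.6 in Th1 KO and 48.9 ± 9.16 in Th1 WT. The order below them differed between Th17 and Th1. Nr4a1 took the third place in Th17, at 26.4 ± 7.55 TPM in KO and 23.5 ± 6.51 in WT, and the fifth place in Th1, at 2.29 ± 0.376 in KO and 2.82 ± 0.344 in WT, below Spry1 and Egr1. In Th17 KO the neighbours from Egr1 (9.16 ± 3.46 TPM) through Spry1, Nr4a2, Egr2 and Nr4a3 to Egr3 (3.31 ± 2.71 TPM) all overlapped, and in Th17 WT so did those from Nr4a1 to Nr4a2. In Th1 WT the last 3 places, Egr2 (0.711 ± 0.211 TPM), Nr4a3 (0.686 ± 0.071) and Egr3 (0.594 ± 0.135), were not separated. The last 4 in Th1 KO, from Nr4a2 (1.22 ± 0.409 TPM) to Egr3 (0.779 ± 0.0255), were not separated either.

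Between KO and WT, none of the 9 genes passed the test in Th17 or in Th1 in the fit by group means alone. In Th17, edgeR's quasi-likelihood test called 0 of 9 at an adjusted p of 0.05, where 5.83% of all genes were called. At an unadjusted p under 0.05 there were 2, Nr4a2 and Spry1, where 17.2% of all genes were, and DESeq2 called 1, Dusp2, where it called 4.02% of all genes. Nr4a2 averaged 12.2 ± 2.47 CPM in Th17 KO and 20.7 ± 5.42 CPM in Th17 WT (SD, n = 3 each), a log2 fold change of -0.56 (SE 0.22, 95% interval -1.01 to -0.11, adjusted p = 0.15). Leaving out single libraries moved it between -0.92 without Th17 WT 1, where it passed (adjusted p = 0.029), and -0.34 without Th17 KO 1 (adjusted p = 0.548), and it was -0.24 without the 3 shallow libraries (adjusted p = 0.735). Spry1 averaged 9.57 ± 2.04 CPM in Th17 KO and 15.1 ± 4.12 CPM in Th17 WT (log2 fold change -0.40, SE 0.17, 95% interval -0.75 to -0.05, adjusted p = 0.203). Its libraries spanned 7.35 to 11.4 CPM in Th17 KO and 11.9 to 19.7 CPM in Th17 WT. The lowest, Th17 KO 2, rested on 7 reads, with a 95% counting interval of 2.96 to 15.1 CPM. Dusp2 averaged 50.9 ± 10.8 CPM in Th17 KO and 75.6 ± 7.12 CPM in Th17 WT (log2 fold change -0.54, SE 0.24, 95% interval -1.08 to 0.01, adjusted p = 0.296, and 0.0433 in DESeq2). Egr1 averaged 15.7 ± 5.76 CPM in Th17 KO and 25.4 ± 11.9 CPM in Th17 WT, and its groups overlapped (log2 fold change -0.70, SE 0.32, 95% interval -1.40 to 0.01, adjusted p = 0.294). Without Th17 KO 1 the values of Dusp2 and Egr1 were -0.30 each, and without Th17 KO 3 they were -0.82 and -1.11. The other 5 gave log2 fold changes between -0.27 for Myc and 0.15 for Nr4a1, with adjusted p from 0.643 for Myc to 0.997 for Egr3. The Egr2 interval ran from -1.10 to 1.0 and that of Egr3 from -0.86 to 0.81 on the log2 scale.

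In Th1, 0 of 9 passed in edgeR's quasi-likelihood test in the same fit by group means alone, where 4.61% of all genes did. None had an unadjusted p under 0.05, where 16.6% of all genes had one, and DESeq2 called 0, where it called 2.6% of all genes. Log2 fold changes of KO over WT ran from -0.34 for Nr4a1 (95% interval -1.01 to 0.33, adjusted p = 0.68) to 0.34 for Egr3 (-0.54 to 1.22, adjusted p = 0.786). For Myc the value was 0.29 (-0.19 to 0.78, adjusted p = 0.572). The narrowest interval was that of Spry1, -0.44 to 0.08. With the genotype difference averaged over both cultures, 0 of 9 passed in edgeR's fit by group means, where 9.83% of all genes did. DESeq2 called 0, where it called 7.09% of all genes. Spry1 alone had an unadjusted p under 0.05, as 21.9% of all genes had (log2 fold change -0.29, SE 0.11, adjusted p = 0.0896), and it passed without Th1 KO 1 (log2 fold change -0.35, adjusted p = 0.0367). The genotype difference in Th17 minus that in Th1 passed for 0 of 9 in edgeR's fit by group means, where 0.591% of all genes passed. None had an unadjusted p under 0.05 (9.75% of all genes), and DESeq2 called 0 (0.665% of all genes). The values of this difference in edgeR lay between -0.57 for Myc (SE 0.32, adjusted p = 0.658) and 0.49 for Nr4a1 (SE 0.38, adjusted p = 0.774). These comparisons share samples with each other, so their values are set side by side only. A comparison of 3 samples with 3 cannot give an exact two-sided permutation p under 0.1.

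Inside the groups, Nr4a2 and Egr2 were lowest in the library with the highest Myc. In Th17 KO that library was Th17 KO 1, where Myc lay 0.24 above the group mean on the log2 CPM scale, Nr4a2 lay at -0.25 and Egr2 at -1.21. In Th17 WT it was Th17 WT 1, with Myc at 0.37, Nr4a2 at -0.46 and Egr2 at -0.46. In Th1 KO it was Th1 KO 1, with Myc at 0.28, Nr4a2 at -0.49 and Egr2 at -0.54. In Th1 WT it was Th1 WT 1, with Myc at 0.21, Nr4a2 at -0.25 and Egr2 at -0.43. Dusp2 was lowest in that library in 3 of the 4 groups, with Th1 KO the exception. All 4 of these libraries are deep. Th17 WT 1 is the only deep library of its group, so the pattern and depth cannot be told apart there. All 4 were also the first of their group in order of deposit. The library codes of Th17 KO 1 and Th17 WT 1 lie 2 apart, as for Th1 KO 1 and Th1 WT 1. The 4 groups may therefore not be separate cases. The pattern was chosen after the values were seen and was not tested, and libraries of 1 group share a mean, so that a high value in 1 sets the others lower.

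**Figure D3:**
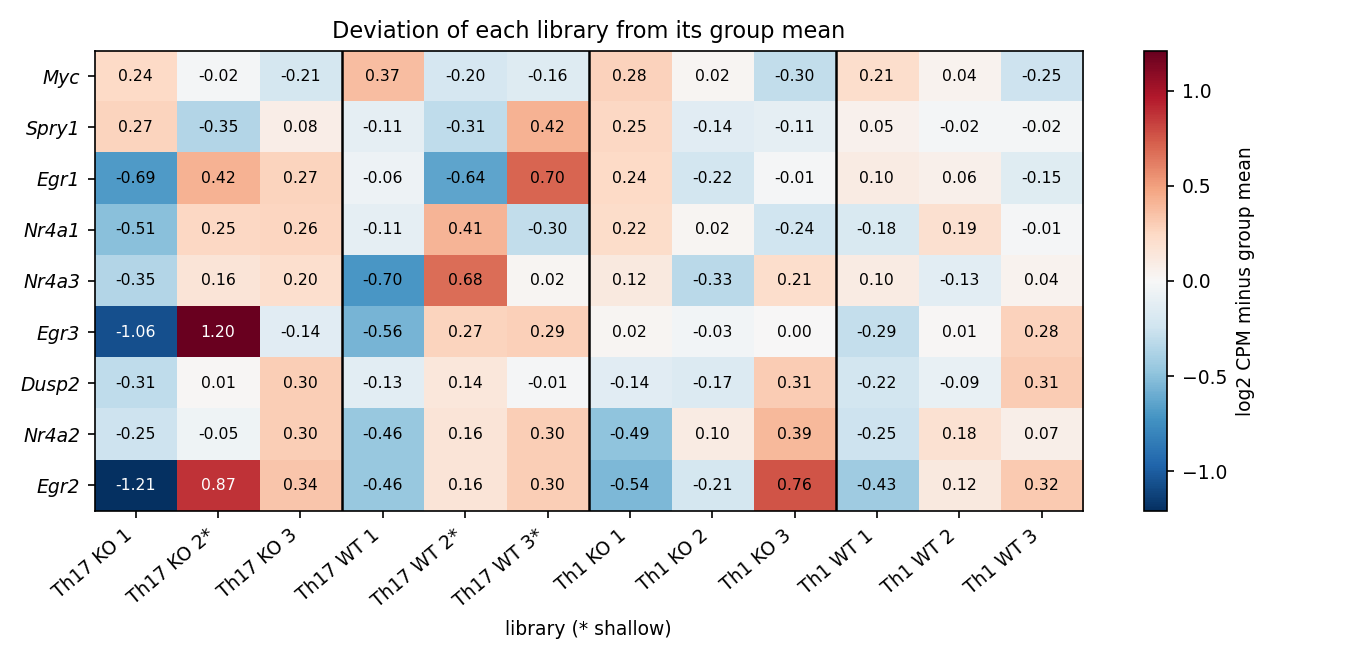
Log2 CPM of each gene minus its group mean (colour and printed value) in the 12 libraries, with a line between groups and an asterisk for a shallow library. The first library of each group has the highest Myc value, 0.24, 0.37, 0.28 and 0.21 above the mean, and the lowest Nr4a2 and Egr2 values of its group.

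Other early response genes were divided between Th17 and Th1. Of 38 tested genes in a list of immediate early and early T cell receptor response genes, 17 were higher and 7 lower in Th17 KO than in Th1 KO, with a median log2 fold change of 0.24. In Th17 WT, 16 were higher and 9 lower than in Th1 WT, with a median of 0.28, and the lower count was 3 without Th17 WT 1 and 5 without Th17 WT 2. Over all genes 26.9% were called higher and 26.7% lower in KO, and 23.5% and 23.6% in WT. Tnfaip3, a brake on NF-kB signalling, averaged 435 CPM in Th17 KO against 60.9 CPM in Th1 KO (log2 fold change 2.83, SE 0.07, adjusted p = 1.67e-20). Cd69, a surface marker of recent activation, averaged 100 CPM in Th17 KO and 87.6 CPM in Th17 WT, against 35.5 CPM in Th1 KO and 34.4 CPM in Th1 WT, and rose by 1.55 in KO and 1.36 in WT on the log2 scale (adjusted p = 5.97e-10 and 1.26e-08). Irf4, a factor whose level follows receptor signal strength, rose by 1.01 in KO and 1.17 in WT (adjusted p = 0.00308 and 0.00169). Rgs16, a regulator of G protein signalling, rose by 3.10 and 3.39, and Id3, an inhibitor of E proteins, rose by 3.11 in WT. Tnf, the cytokine gene, fell by 1.82 in KO and by 1.80 in WT, with 30.4 CPM in Th17 KO and 27.6 CPM in Th17 WT against 106 CPM in both Th1 groups. Nfatc1, a calcium-regulated factor, fell by 0.54 in KO and by 0.28 in WT (adjusted p = 2.04e-06 and 0.00558, and 0.217 in WT without Th17 WT 1). Nfkbid, an IkB family gene, fell by 0.87 in KO. Fosb, an AP-1 subunit, fell by 1.04 in WT, a call lost without Th17 KO 3, any 1 Th17 WT library, Th1 KO 2, Th1 WT 2 or Th1 WT 3 (adjusted p = 0.0557 to 0.486).

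The partners of the 9 gene products moved in both directions between Th17 and Th1. Of 16 tested, 5 were higher and 4 lower in Th17 KO, and 6 were higher and 4 lower in Th17 WT, beside the 26.9% and 26.7% of all genes in KO and the 23.5% and 23.6% in WT, so the counts in KO were near the background. Nab2, a corepressor that binds EGR proteins, averaged 29.4 CPM in Th17 KO and 35.7 CPM in Th17 WT, against 13.7 CPM in Th1 KO and 18 CPM in Th1 WT (log2 fold change 1.04, SE 0.15 in KO and 0.88, SE 0.15 in WT). Its relative Nab1 rose by 0.30 in KO and 0.41 in WT. Mycn, a paralog of Myc, averaged 20 CPM in Th17 KO and 15.2 CPM in Th17 WT, against 68.5 CPM in Th1 KO and 58.3 CPM in Th1 WT, and fell by 1.93 in KO and by 1.69 in WT (adjusted p = 0.000273 and 0.00152). Max, the partner that MYC needs to bind DNA, did not pass (log2 fold change -0.19 in KO and -0.07 in WT, adjusted p = 0.0739 and 0.539, and 0.0467 in KO without the 3 shallow libraries). Of the MAX-binding antagonists of MYC, Mxd4 rose by 2.80 in KO and 2.71 in WT, and Mxd3 fell by 1.41 in KO and by 1.40 in WT. Egr4 had 1 count and Mycl 39 counts over all 12 libraries, and neither was tested.

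Genes of ERK and MAP kinase feedback were also divided, with 8 of 25 higher and 8 lower in Th17 KO, and 9 higher and 10 lower in Th17 WT (6 lower without Th17 WT 1). All genes were called higher or lower in 26.9% and 26.7% of cases in KO, near the counts of the list there, and in 23.5% and 23.6% in WT. Dusp4, a nuclear phosphatase of ERK like DUSP2, averaged 71.6 CPM in Th17 KO and 93.6 CPM in Th17 WT, against 42.7 CPM in Th1 KO and 51.5 CPM in Th1 WT, and rose by 0.80 in KO and 1.01 in WT (adjusted p = 0.0044 and 0.00131). Dusp6, a cytoplasmic ERK phosphatase, fell by 0.36 in KO and by 0.45 in WT (adjusted p = 0.0122 and 0.00513). Those calls were lost without Th17 KO 1 in KO (0.292) and without Th17 WT 1 in WT (0.254). Dusp5 did not pass (log2 fold change 0.33 in KO and 0.31 in WT, adjusted p = 0.0685 and 0.0959), though it did in DESeq2 (0.0317 and 0.0343), without Th1 KO 3 (0.00653 and 0.035), without Th17 KO 1 (0.00341 and 0.0252) and, in WT, without Th17 KO 3 (0.0293). Dusp16 and Dusp3 were the highest called genes of the list with at least 5 CPM, at 1.30 and 1.45 in KO and 1.24 and 2.13 in WT. Rasgrp1, an activator of RAS in T cells, fell by 1.73 in KO and by 1.49 in WT, and Rasa3, a RAS and RAP inhibitor, fell by 1.87 and by 1.37. Of the Sprouty relatives, Spry4 averaged 0.484 CPM in Th17 KO and 0.374 CPM in Th17 WT, against 1.71 CPM in Th1 KO and 3.33 CPM in Th1 WT. It fell by 2.78 in KO (SE 0.58, adjusted p = 0.000247) and fell by 4.53 in WT (SE 0.71, adjusted p = 7.96e-06). The Th17 WT mean was below the worth of 1 read in Th17 WT 2 (0.396 CPM) and Th17 WT 3 (1.04 CPM). The size of the Spry4 fall therefore rests on few reads. Spry2 rose by 0.83 in WT (adjusted p = 0.0282) and gave -0.47 in KO (adjusted p = 0.161, and 0.0316 without Th17 KO 3). The WT call was lost without Th1 WT 2, Th1 WT 3, Th17 WT 1, Th17 WT 3 or the 3 shallow libraries (adjusted p = 0.0566 to 0.0952).

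Genes linked to EGR2, EGR3 and NR4A in T cell anergy and exhaustion had 10 of 21 members higher and 7 lower in Th17 KO, and 11 higher and 5 lower in Th17 WT. The lower count in WT was near the share of all genes called lower (23.6%, and 26.7% in KO), and those called higher were 26.9% of all genes in KO and 23.5% in WT. Cd200, which encodes an inhibitory surface ligand, averaged 78.9 CPM in Th17 KO and 57.2 CPM in Th17 WT, against 1.81 CPM in Th1 KO and 1.25 CPM in Th1 WT (log2 fold change 5.37, SE 0.15 in KO and 5.51, SE 0.17 in WT). Ndrg1, a gene of T cell anergy, rose by 2.84 in KO and 2.89 in WT. Fasl, a death ligand gene, fell by 3.15 in KO and by 1.79 in WT, and Havcr2, which encodes the inhibitory receptor TIM-3, fell by 2.39 in KO and fell by 1.83 in WT (adjusted p = 0.0556 in WT without Th17 WT 1).

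Targets of MYC were mostly lower in Th17, where Myc itself did not pass. Among all genes tested, 26.9% were called higher and 26.7% lower in KO, and 23.5% and 23.6% in WT. Of 32 tested, 3 were higher and 22 lower in Th17 KO, and 1 was higher and 24 lower in Th17 WT (2 higher without Th17 KO 2 or Th17 WT 2, and 4 without the 3 shallow libraries), with a median log2 fold change of -0.47 in each. Slc7a5, an amino acid transporter gene, averaged 114 CPM in Th17 KO and 139 CPM in Th17 WT, against 299 CPM in Th1 KO and 280 CPM in Th1 WT, and fell by 1.43 in KO and by 0.99 in WT. Shmt2, a mitochondrial enzyme of serine metabolism, fell by 1.08 in KO, and Rrs1, a ribosome assembly factor, fell by 0.76 in WT. Wdr12, another ribosome assembly factor, was higher in both (log2 fold change 0.51 in KO and 0.44 in WT), and Npm1, which encodes nucleophosmin, rose by 0.35 in KO. With libraries thinned to the smallest total, the higher and lower calls together were fewer by more than 1.5 times in each of these 5 lists.

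**Figure D4:**
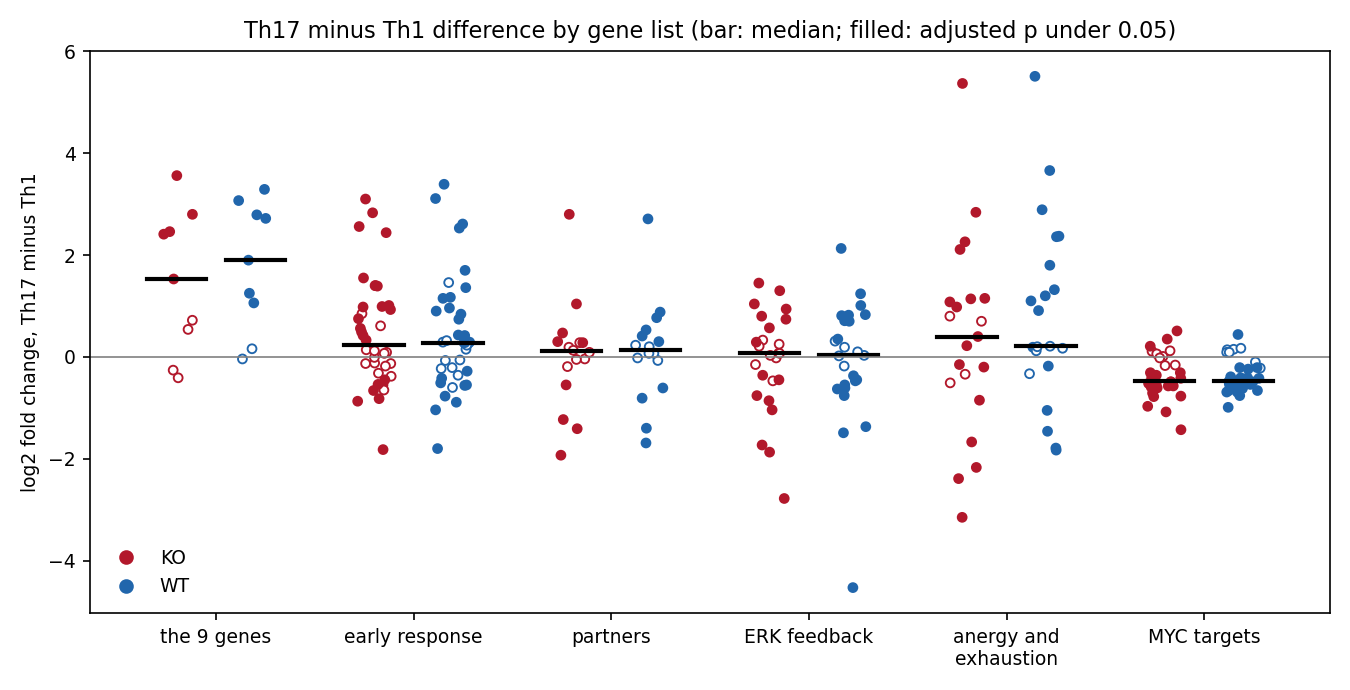
Log2 fold change of Th17 minus Th1 for each tested gene of the 9 and of 5 lists, in KO and in WT, with bars for medians and filled points past an adjusted p of 0.05 in edgeR. The 9 genes have medians of 1.53 and 1.90, and the MYC targets -0.47 in each genotype.

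Against the 0 calls among the 9 genes in the fit by group means alone, several listed genes differed between KO and WT in that fit. With a block by library code some of the 9 were called too, as given further below. Of the MYC targets, 6 were higher and 2 lower in Th17 KO than in Th17 WT, where 1.81% of all genes were called higher and 4.02% lower. Without Th17 KO 3 the higher count was 3, and without the 3 shallow libraries it was 2; the lower count was 0 without Th17 KO 1 or Th17 WT 2, and 1 without Th17 KO 3, Th17 WT 1, Th17 WT 3, Th1 KO 1, Th1 KO 2 or Th1 WT 2. In Th1 KO, edgeR called 5 higher than in Th1 WT, where it called 1.69% of all genes higher. In Th1 KO, 0 were called lower in edgeR or in DESeq2. The Th1 count of higher genes was 2 without Th1 KO 2, Th1 KO 3 or Th1 WT 1, and 3 without Th1 WT 2 or Th1 WT 3. Odc1, the rate-limiting enzyme of polyamine synthesis, averaged 768 CPM in Th17 KO against 553 CPM in Th17 WT (log2 fold change 0.47, SE 0.09, adjusted p = 0.0018) and 859 CPM in Th1 KO against 638 CPM in Th1 WT (log2 fold change 0.43, SE 0.08, adjusted p = 0.00308). The Th17 call of Odc1 was lost without the 3 shallow libraries (adjusted p = 0.115). Srm, which encodes spermidine synthase, rose by 0.39 in Th17 KO (adjusted p = 0.0222), a call lost in DESeq2 (0.0707) and without Th17 WT 1 (0.0985), Th17 KO 3 (0.0991) or the 3 shallow libraries (0.0938). In Th17 KO, Slc7a5 fell by 0.35 (adjusted p = 0.0102, and 0.122 without Th17 KO 1 or 0.0821 without Th17 WT 2). Shmt2 fell by 0.26 there (adjusted p = 0.0365), a call lost in DESeq2 (0.0743) and without any 1 library other than Th17 KO 2, Th1 KO 3, Th1 WT 1 and Th1 WT 3 (0.0528 to 0.182). Mybbp1a, which encodes a nucleolar protein, rose by 0.30 in Th1 KO (adjusted p = 0.00202). DESeq2 called 3 of the 32 higher in Th17 KO and 2 in Th1 KO. In either direction it called 4.02% of all genes in Th17 and 2.6% in Th1. Averaged over both cultures, 13 of the 32 were higher in KO and 0 lower in edgeR, where 3.19% of all genes were called higher.

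Among the partners, Nab1 was higher in KO in both cultures (log2 fold change 0.30, SE 0.08, adjusted p = 0.0252 in Th17 and 0.42, SE 0.07, adjusted p = 0.000334 in Th1). The Th17 call was lost without Th17 WT 1 (0.278) or Th17 KO 3 (0.083) and in DESeq2 (0.0839). In Th1 KO, Mxi1, a MAX-binding antagonist of MYC, averaged 97.6 CPM against 49.1 CPM in Th1 WT (log2 fold change 0.99, SE 0.08, adjusted p = 7.62e-09). Rxra, which encodes a retinoid receptor that can pair with NR4A proteins, averaged 34.2 CPM in Th1 KO against 16.4 CPM in Th1 WT (log2 fold change 1.07, SE 0.13, adjusted p = 1.40e-05). Mxd1, a relative of Mxi1, fell by 0.73 in Th1 KO (adjusted p = 0.00946, and 0.0562 without the 3 shallow libraries). In the average over both cultures Max fell by 0.21 in KO (adjusted p = 0.0338), a call lost in DESeq2 (0.117), without the 3 shallow libraries (0.0521) and without any 1 library other than Th17 KO 2, Th17 WT 2, Th1 KO 1 and Th1 WT 3 (0.058 to 0.139). In the early response list 1 of 38 genes was higher and 2 were lower in Th17 KO, near the 1.81% and 4.02% of all genes. Gadd45b, a stress response gene, rose by 0.56, a call lost without Th1 WT 1 or any 1 Th17 library other than Th17 KO 1 (adjusted p = 0.0508 to 0.297). Nfatc1 fell by 0.48 (adjusted p = 0.0015) and Zfp36l1, an RNA decay factor, fell by 0.62, a call lost with an adjusted p of 0.0557 to 0.197 in the fits that follow. The lower count was 1 without any 1 of Th17 KO 1, Th17 WT 1, Th17 WT 2, Th17 WT 3 or the 5 Th1 libraries other than Th1 WT 3. In Th1 KO, 6 were lower, where 2.92% of all genes were, with Jun at -0.57 (a call lost without any 1 Th1 library other than Th1 WT 2, adjusted p = 0.0599 to 0.0973) and Btg1 at -0.51, and the count was 2 without Th1 WT 1 and 3 without Th1 KO 2 or Th1 KO 3.

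In the anergy and exhaustion list, 1 of 21 was higher and 6 were lower in Th17 KO, where 1.81% and 4.02% of all genes were, and 2 were lower in Th1 KO, where 2.92% of all genes were. The Th1 count was 1 without Th1 KO 1, Th1 KO 3, Th1 WT 2, Th17 KO 2 or Th17 WT 3, and 4 without Th17 WT 1. Bcl2l11, which encodes the cell death factor BIM, averaged 11.7 CPM in Th17 KO against 36.7 CPM in Th17 WT (log2 fold change -1.63, SE 0.16, adjusted p = 4.01e-06), and fell by 0.52 in Th1 KO (adjusted p = 0.00452). Fasl fell by 1.78 in Th17 KO (adjusted p = 0.000388). Lag3, which encodes an inhibitory receptor, fell by 0.44 in Th1 KO (adjusted p = 0.048), a call lost in DESeq2 (0.126), without the 3 shallow libraries (0.0966) and without Th17 KO 2, Th17 WT 2, Th17 WT 3, Th1 KO 1, Th1 KO 3, Th1 WT 1 or Th1 WT 2 (0.054 to 0.28). Cd200 was higher in Th17 KO than in Th17 WT (log2 fold change 0.44, SE 0.11, adjusted p = 0.0197). It did not pass without Th17 WT 1 (0.153), Th17 KO 1 (0.0823), Th17 WT 3 (0.051) or the 3 shallow libraries (0.17). In the feedback list, Rasa3 fell by 0.66 and Dusp7, a cytoplasmic ERK phosphatase, fell by 0.53 in Th17 KO (2 of 25 called lower, where 4.02% of all genes were, and 1 without Th17 KO 1, where Dusp7 had an adjusted p of 0.092). In Th1 KO, Dok1, an adaptor that dampens RAS signalling, fell by 0.31 (adjusted p = 0.0357), a call lost in DESeq2 (0.19) and without any 1 Th1 library (0.0541 to 0.226). Spred3, a Sprouty relative, fell by 0.49 in KO in the average over both cultures (adjusted p = 0.049), a call lost in DESeq2 (0.109), without the 3 shallow libraries (0.181) and without any 1 library other than Th17 KO 1 and Th1 WT 2 (0.0538 to 0.217).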

How the data were processed

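Poly-A RNA of 12 sorted samples was measured; per the labels' protocols, cDNA was made by template switching, which keeps no strand, and sequenced in pairs after tagmentation. The submitters' processing notes name featureCounts, TopHat2, Bowtie2 and GRCm38 (mm10); versions, strand setting and annotation release are not given in the sources used here. Each deposited file holds raw read counts per Ensembl ID, without normalisation, as the values show. Replicates are numbered in order of deposit, and the numbers only name samples.

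Of 39179 IDs, 37607 were named and placed with GENCODE annotation of GRCm38; promoter sequences are RefSeq's. No other counted gene's span overlapped those of the 9. TMM scaling and the filter filterByExpr (4 groups) in edgeR 4.0.16 left 12189 genes. Groups were compared in 6 comparisons with edgeR's quasi-likelihood F-test (robust, all 12 samples, group means only) and Benjamini-Hochberg adjustment over all genes tested, with a threshold of 0.05. Positive values mean higher in Th17, or higher in KO. Intervals of 95% came from the same fit and rest on the spread between samples; those on single counts cover counting error only. Deviations used log2 CPM with a prior count of 2.

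The members, the gene lists and the tests were chosen with earlier results of these data known. Of each list the 2 highest and 2 lowest called genes with at least 5 CPM in the higher group were named, beside Klrk1 and 14 genes named in every case. Likeness was Pearson's r over the 12 libraries. As alternatives, DESeq2 1.42.0, RLE size factors, no filter, counts without the dominant ID, a fit without the 3 shallow libraries or with a term for them, thinned libraries, only the groups compared, a block by library code, and each library left out were run. The test was checked on simulated counts of 11906 genes, of which 200 were changed between Th1 KO and Th1 WT. Unchanged genes were 7.1% of those called at an adjusted p under 0.05. It recovered 74% of the genes changed 1.5-fold and 98% of those changed 4-fold, 50 genes each. All Th1 libraries are deep, and the changed genes were drawn from all levels. These rates therefore do not cover comparisons that hold shallow libraries, or genes of few reads taken alone. R 4.3.3, limma 3.58.1, Python 3.11.15, pandas 2.3.3 and matplotlib 3.10.9 were used.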

Additional observations from a re-analysis of the deposited data

Results flagged for a closer look

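None of the 9 genes met a criterion for a closer look. Among the other named genes, 4 had a genotype difference in Th17 that differed from that in Th1 by a test of the difference itself (edgeR's quasi-likelihood test, Benjamini-Hochberg adjusted). Bcl2l11, the gene of the cell death factor BIM, gave -1.11 (log2, SE 0.19, adjusted p = 0.00721), from -1.63 in Th17 and -0.52 in Th1. Fasl gave -1.36 (SE 0.28, adjusted p = 0.04), from -1.78 in Th17 and -0.42 in Th1. Mxi1 gave -0.81 (SE 0.12, adjusted p = 0.000639), from 0.18 in Th17 and 0.99 in Th1. Btg1, an antiproliferative early response gene, gave 0.40 (SE 0.09, adjusted p = 0.0416), from -0.11 in Th17 and -0.51 in Th1. In thinned libraries none of the 4 was past the threshold (adjusted p up to 0.999). The Bcl2l11 call was also lost without Th17 KO 3 (0.0599), the Fasl call without Th17 WT 1, Th17 KO 2, Th17 KO 3 or any 1 Th1 library other than Th1 KO 2 (0.0619 to 0.421, with the difference itself at -0.69 without Th17 WT 1), and the Btg1 call without any 1 library other than Th17 WT 1 and Th17 KO 2 (0.051 to 0.14).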

How the results depend on the processing

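Of 1085 values of a single gene in a comparison under an alternative, 1054 stayed on the same side of the threshold, 8 lost a call, 23 gained one and 0 called values changed sign. Of 826 that passed neither way, 61 changed sign. The members called in Th17 against Th1 were 1 in KO and 1 in WT, of 7 with enough counts, in thinned libraries; the thinning leaves fewer counts. With no filter the count was 1 (Egr1) in Th17 KO against WT and 1 (Egr1) in the average, and Egr1 was also called in Th17 KO against Th1 KO (0.70, adjusted p = 0.000407), and DESeq2 gave 1 (Dusp2) in Th17. Leaving out single libraries gave 5 to 7 in KO and 6 to 7 in WT for Th17 against Th1. Between KO and WT it gave 0 to 1 in Th17, 0 to 0 in Th1, 0 to 1 in the average and 0 to 0 in the interaction. The causes were not tested.

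No label pairs samples. Library codes of KO and WT lie 2 apart. Samples so paired correlated over genes at 0.136, 0.0287 and 0.166 in Th1 and 0.226, 0.0259 and -0.0622 in Th17. In Th1 every sample correlated best with its own code partner, and in Th17 not every sample did. These values rest on deviations from means of 3 libraries, and 3 of the Th17 libraries are shallow. They cannot settle whether such pairs shared a culture. The main fit used no block because no label pairs the samples. With a replicate block by library code the members called were 4 in Th17 (Nr4a2, Egr1, Dusp2 and Myc), 1 in Th1 (Myc), 3 in the average (Egr1, Dusp2 and Spry1) and 3 in the interaction (Egr1, Dusp2 and Myc). The 4 in Th17 were lower in KO, by log2 fold changes of -0.65, -1.06, -0.64 and -0.25. Their adjusted p in edgeR's quasi-likelihood test was 0.012, 0.000242, 2.72e-07 and 0.0124. In Th1, Myc was higher in KO (log2 fold change 0.29, adjusted p = 0.000135). The block could not be fitted for Th17 against Th1.

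Depth limits Egr2 and Egr3 most, with 5 to 19 reads in the shallow libraries, all of which are Th17. A fit without them keeps a single Th17 WT library, taken to vary as the other groups do; there Nr4a1, Nr4a2 and Nr4a3 in WT gave 2.93, 2.97 and 2.20.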

Other observations

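Genes whose level over the 12 libraries was most like that of each of the 9 are given as a description; the libraries share the division between Th17 and Th1, which sets most of the likeness. For Nr4a1 they were Ntrk3 (Pearson's r = 0.991), Epn2 (0.988) and Zc3h12d (0.988). Ntrk3 averaged 18.2 CPM in Th17 KO and 9.61 CPM in Th17 WT and was at 0 in all Th1 libraries. For Nr4a2 they were Shisa5 (0.987), Pcsk1 (0.983) and Cd4 (0.983), and Pcsk1 averaged 4.8 CPM in Th17 KO and 13.1 CPM in Th17 WT, with 0 in Th1. Nr4a3 was most like Gramd1b (0.987), Sptbn1 (0.986) and Dop1b (0.984). Egr2 was most like Gldc (0.981), Scin (0.978) and Stk3 (0.962), and Egr3 like Stk3 (0.976), mt-Cytb (0.968) and Supt20 (0.965). Stk3 stood in both lists. Dusp2 was most like Mrps6 (0.97), Cyth4 (0.963) and Gramd3 (0.951), and Egr1 like Tmsb10 (0.923), Dynlrb1 (0.922) and Map3k14 (0.918). For Spry1 they were Gzmm (0.925), Ms4a6d (0.913) and Dffb (0.911). Myc had the lowest values, with Ssr4 (0.853), Tax1bp1 (0.846) and Tars2 (0.84).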
